A study of Mus musculus with 6 samples.

Results

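The 7 genes described here encode interferon-inducible GTPases: Iigp1, Iigp1c, Gm4841, Tgtp1, Tgtp2 and Igtp of the immunity-related GTPase (IRG) family, and Gbp10 of the guanylate-binding protein (GBP) family. They were taken by symbol from a deposited table of 68 genes measured in untreated colon. Of a list of 25 mouse IRG and GBP symbols, only these 7 are in that table. The list also holds Gm4951, an older symbol of Iigp1c. The other genes of the list, among them Irgm1, Irgm2 and Gbp2, were not analysed, so nothing is said about the families as a whole. The table came from bulk RNA-seq of 3 wild-type (WT) mice and 3 Pum2-/- mice, with 1 library per mouse. Both genotypes were kept on FVB, which is an inbred albino mouse strain. Mice of both genotypes drank water without the colitis-inducing agent dextran sulfate sodium. The Pum2-/- mice were global knockouts backcrossed to FVB, and Pum2, which encodes an RNA-binding protein of the Pumilio family, was the targeted gene. Age-matched males and littermates of both genotypes are described for the colitis cohorts of the study, while the labels of these libraries give neither age nor sex. The comparison asked which transcripts differ between the genotypes before any colitis is induced.

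All 7 genes had higher values in each Pum2-/- mouse than in each WT mouse. The differences of the group means on the log2(value + 1) scale ran from 1.83 for Igtp to 2.96 for Tgtp1, with a median of 2.03 over the 7 genes. The 7 genes were selected on these same values, which are given as a description without a test: the authors deposited only genes that they had called different, and the adjusted p-value in their own column was under 0.05 in all 69 rows. Of the 68 listed genes, 44.1% were higher in every Pum2-/- library than in every WT library, and nothing is read from the count of 7 of 7 against that share. With 3 mice against 3 an exact permutation test cannot give a p under 0.1.

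IRG and GBP proteins are large GTPases that defend cells from within against vacuole-dwelling parasites and bacteria. Interferon-γ is their main inducer in mice: its receptor signals through JAK kinases, and the response acts on promoters through GAS elements and interferon-stimulated response elements (ISRE), the latter bound by factors such as IRF1. Within the IRG family, the effector proteins load onto the membrane of the pathogen's vacuole and disrupt it, and the regulatory Irgm proteins sit on the cell's own membranes and hold the effectors inactive there. Iigp1 encodes the effector Irga6, Tgtp1 and Tgtp2 encode the effector Irgb6, and Igtp encodes the regulator Irgm3. GBP proteins assemble on vacuoles and bacteria together with the IRG effectors.

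Promoters are shown for Tgtp1, Tgtp2 and Igtp, the 3 of 7 genes that could be matched by symbol to RefSeq promoters on GRCm38.p6. Iigp1, Iigp1c, Gm4841 and Gbp10 had no match there, and their promoters were not searched. Each window covers 250 bases before to 50 after the transcription start. In all 3, a GAS-type match is followed at the same distance by an ISRE-type match. The window of Tgtp1 is chr11:48992197-48992496 on the minus strand, that of Tgtp2 is chr11:49064163-49064462 on the minus strand, and that of Igtp is chr11:58199306-58199605 on the plus strand. The Tgtp1 window lies inside the span of that gene in the GENCODE M21 annotation (48985327 to 48994172). Distances for Tgtp1 are therefore from the RefSeq start only. Each sequence reads 5′ to 3′ in the direction of transcription, and the capitals mark the GAS-type match and then the ISRE-type match:
Tgtp1: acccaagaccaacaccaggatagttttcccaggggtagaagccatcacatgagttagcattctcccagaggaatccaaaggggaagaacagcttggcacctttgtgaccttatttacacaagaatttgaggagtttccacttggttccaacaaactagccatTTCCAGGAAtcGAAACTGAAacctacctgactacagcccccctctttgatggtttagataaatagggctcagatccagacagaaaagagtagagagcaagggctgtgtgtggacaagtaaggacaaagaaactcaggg
Tgtp2: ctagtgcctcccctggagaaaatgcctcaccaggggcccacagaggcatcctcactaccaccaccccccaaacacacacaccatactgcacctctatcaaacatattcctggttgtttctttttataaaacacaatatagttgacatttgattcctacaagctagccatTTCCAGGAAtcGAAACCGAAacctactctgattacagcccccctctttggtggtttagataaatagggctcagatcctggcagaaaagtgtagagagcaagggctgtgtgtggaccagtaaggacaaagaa
Igtp: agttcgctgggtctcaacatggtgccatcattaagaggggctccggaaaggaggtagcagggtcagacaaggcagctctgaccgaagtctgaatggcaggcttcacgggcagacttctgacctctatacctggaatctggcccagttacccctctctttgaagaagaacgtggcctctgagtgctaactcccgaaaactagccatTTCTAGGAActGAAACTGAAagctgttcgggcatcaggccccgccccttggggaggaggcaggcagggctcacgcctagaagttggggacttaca

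The letters searched on both strands were TTCNNNGAA for the GAS element, its stricter form TTCCNGGAA, which lies within the first, and GAAANNGAA for the ISRE. Counted from the start site, the GAS-type match lay from -88 to -80 in Tgtp1, from -81 to -73 in Tgtp2 and from -45 to -37 in Igtp. The ISRE-type match began after a spacer of 2 bases in all 3 promoters and ended at -69 in Tgtp1, at -62 in Tgtp2 and at -26 in Igtp. Tgtp1 and Tgtp2 carried the stricter GAS form and Igtp did not. Over the whole windows, 77.5% of aligned bases were identical between Tgtp1 and Tgtp2, 59.4% between Igtp and Tgtp1, and 58.2% between Igtp and Tgtp2.

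Over all 32851 RefSeq promoters of this length, 8.30% held the GAS letters, 1.15% the stricter form and 8.56% the ISRE letters. Both of the looser motifs occurred at any distance in 1.07% of promoters. The arrangement with the spacer of 2 bases, which was searched for after these promoters had been read, occurred in 8 promoters, or 0.0244% of all. Those were the promoters of Tgtp1, Tgtp2, Igtp, its neighbour Irgm2, Gm12185, Adar, Olfr382 and LOC115488470. A match is a description of the letters and not a binding site, and the reference letters are not those of FVB mice.

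Iigp1 (ENSMUSG00000054072) encodes the effector Irga6. Its normalized expression was 13.1, 7.07 and 16.6 in WT mice 1 to 3 and 79.2, 104 and 48.2 in Pum2-/- mice 1 to 3. The lowest Pum2-/- value was 2.90 times the highest WT value, so the genotypes did not overlap. The group means were 12.3 ± 4.83 (SD, n = 3) in WT and 77.3 ± 28.2 (SD, n = 3) in Pum2-/- mice, a ratio of 6.29 and a log2 difference of 2.56 (SE 0.46).

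Iigp1c (ENSMUSG00000073555), annotated under its older symbol Gm4951, is a coding neighbour of Iigp1 in the same IRG cluster. Its normalized expression was 6.54, 4.04 and 10.2 in the WT mice and 33.3, 39.4 and 15.1 in the Pum2-/- mice. This was the narrowest separation among the 7 genes, with Pum2-/- mouse 3 at 1.48 times WT mouse 3. The log2 difference was 1.90 (SE 0.53), and the means of 6.93 ± 3.09 and 29.2 ± 12.6 (SD, n = 3 each) gave a ratio of 4.22.

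Gm4841 (ENSMUSG00000068606) lies between Iigp1c and Iigp1 and had the lowest level of the 7 genes in both genotypes per kilobase of transcript. Its normalized expression was 0.923, 1.01 and 1.85 in the WT mice and 11.7, 15.2 and 10.7 in the Pum2-/- mice. Despite the low level it had the widest separation, the lowest Pum2-/- value standing 5.79 times above the highest WT value. The log2 difference was 2.59 (SE 0.23) with 1 added to each value. It came to 3.26 with 0.1 added and to 3.31 as the log2 ratio of group means, so the pseudocount bears on this gene more than on the others.

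Tgtp1 (ENSMUSG00000078922) and Tgtp2 (ENSMUSG00000078921) both encode the effector Irgb6. Tgtp1 was at 2.80, 2.02 and 4.64 in the WT mice and at 59.7, 25.7 and 17.8 in the Pum2-/- mice. Tgtp2 was at 9.35, 6.06 and 14.8 in the WT mice and at 48.9, 44.6 and 33.4 in the Pum2-/- mice. Neither gene overlapped between genotypes, and Pum2-/- mouse 1 was the highest for both. The log2 difference was 2.96 (SE 0.57) for Tgtp1 and 2.03 (SE 0.37) for Tgtp2. Without Pum2-/- mouse 1, whose Tgtp1 value was far above those of the other Pum2-/- mice, the log2 difference of Tgtp1 was 2.48.

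Igtp (ENSMUSG00000078853) encodes the regulator Irgm3 and had the highest level of the 7 genes per kilobase of transcript. Its normalized expression was 36.5, 26.2 and 52.5 in the WT mice and 136.9, 120.2 and 146.6 in the Pum2-/- mice. The groups did not overlap, and the 3 Pum2-/- mice lay closer together in proportion than for any other of the genes. The means of 38.4 ± 13.3 and 134.5 ± 13.3 (SD, n = 3 each) gave a ratio of 3.50 and a log2 difference of 1.83 (SE 0.29), the lowest of the 7 genes on both measures.

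Gbp10 (ENSMUSG00000105096), the GBP gene of the group, was at 8.46, 4.04 and 7.37 in the WT mice and at 30.3, 33.9 and 21.5 in the Pum2-/- mice. The lowest Pum2-/- value was 2.54 times the highest WT value. The log2 difference was 1.98 (SE 0.34) and the ratio of means 4.31.

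**Figure D1:**
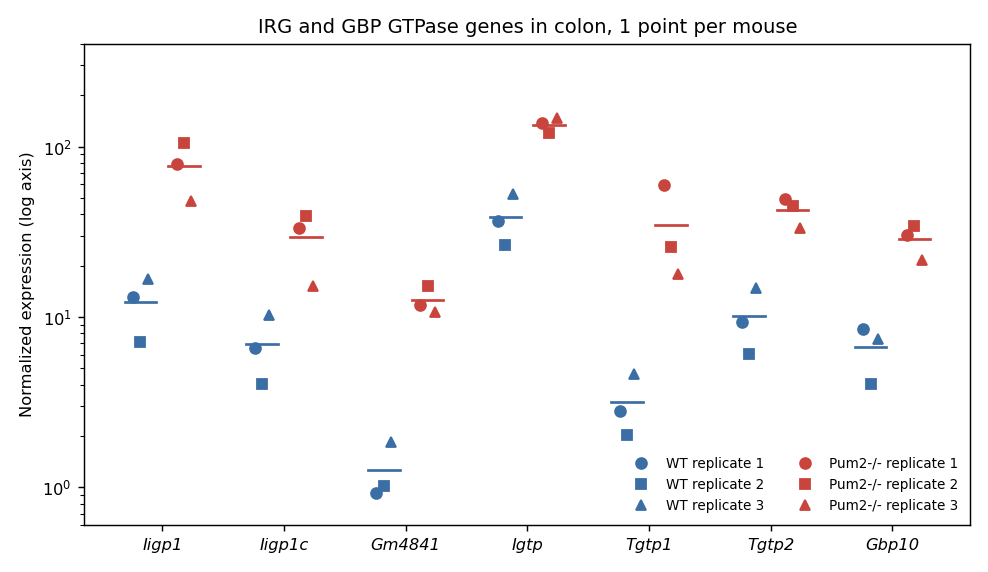
Normalized expression of the 7 GTPase genes on a log axis, with 1 point per mouse, marker shapes for replicates 1 to 3 and lines at the group means. In each gene the Pum2-/- points lie above all WT points, most narrowly for Iigp1c (15.1 in Pum2-/- mouse 3 against 10.2 in WT mouse 3).

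Divided by transcript length, the values ranked the 7 genes against each other. In WT colon, Igtp led with 19.01 ± 6.55 per kilobase (SD, n = 3), followed by Iigp1 at 3.93 ± 1.55, Tgtp2 at 3.59 ± 1.57, Iigp1c at 2.62 ± 1.17, Gbp10 at 1.88 ± 0.652, Tgtp1 at 1.12 ± 0.476 and Gm4841 at 0.445 ± 0.181. In Pum2-/- colon, Igtp again led with 66.5 ± 6.59 per kilobase, followed by Iigp1 at 24.8 ± 9.03, Tgtp2 at 15.04 ± 2.85, Tgtp1 at 12.2 ± 7.89, Iigp1c at 11.1 ± 4.76, Gbp10 at 8.10 ± 1.82 and Gm4841 at 4.42 ± 0.827. In WT, each step down the order from Iigp1 to Gbp10 was smaller than the larger SD of the genes on either side. In Pum2-/- mice the same held for each step from Tgtp2 to Gbp10. Tgtp1 was the gene whose place moved most, from the sixth place in WT to the fourth in Pum2-/- mice.

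Igtp and the other genes were also compared as shares of their sum. The summed value of the 7 genes was 77.7, 50.5 and 108 in the WT mice and 400, 383.4 and 293.2 in the Pum2-/- mice. Igtp made up 49.2% ± 2.54 (SD, n = 3) of that sum in WT and 38.5% ± 10.03 in Pum2-/- mice, but its share was 34.2% and 31.4% in Pum2-/- mice 1 and 2 and 49.98% in mouse 3, which lies within the WT range. The share of Tgtp1 was 3.97% ± 0.350 in WT and 9.24% ± 4.94 in Pum2-/- mice. The share of Gm4841 was 1.64% ± 0.413 in WT and 3.52% ± 0.532 in Pum2-/- mice. The shares were computed from the values on which the genes were selected and have no test.

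Pum2-/- mouse 3 had the lowest value of its genotype in 6 of the 7 genes, Igtp being the exception with its highest value there. Pum2-/- mouse 2 was the highest for Iigp1, Iigp1c, Gm4841 and Gbp10. Averaged over the 7 genes, the log2 value above the WT mean was 2.50 in Pum2-/- mouse 1, 2.45 in mouse 2 and 1.85 in mouse 3. The 6 of 7 count was the same after each library had been divided by its median over the listed genes. Among the 27 other listed genes with a higher Pum2-/- mean, mouse 3 was the lowest in 4 and the highest in 15. In the WT group, mouse 2 was the lowest in 6 of the 7 genes and mouse 3 the highest in 6, and among those 27 other genes WT mouse 2 was the lowest in 18.

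**Figure D2:**
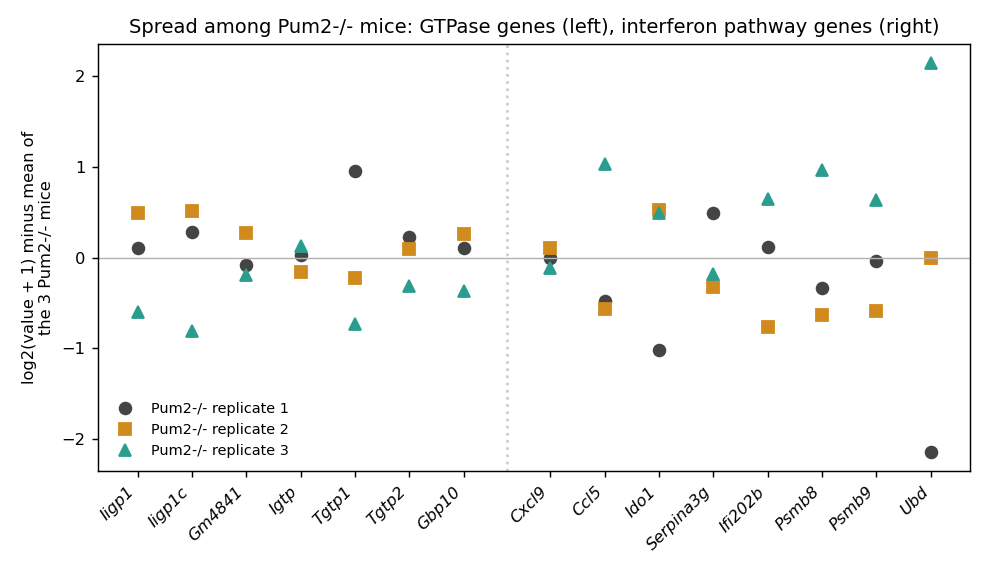
Log2(value + 1) of each Pum2-/- mouse minus the mean of the 3 Pum2-/- mice, for the 7 GTPase genes on the left and 8 listed interferon pathway genes on the right. Pum2-/- mouse 3 is the lowest in 6 of 7 GTPase genes and in 1 of 8 pathway genes.

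Other interferon pathway genes were taken from a list of 38 symbols covering the ligand Ifng, its receptors and signalling genes, antigen-processing genes, interferon-γ-induced chemokines and effectors, and type I interferon targets. Of these, 8 are in the deposited table and the other 30 were not analysed here, among them Ifng and Irf1. All 8 had a higher mean in Pum2-/- mice, with a median log2 difference of 2.35. Of the 8, 7 did not overlap, where 44.1% of all listed genes were higher without overlap. Nothing is read from that contrast, because the list was chosen with earlier results of these data known. The median was 2.03 over the GTPase genes, -0.15 over all 68 listed genes and 2.07 over the 34 listed genes with a higher Pum2-/- mean, among which the GTPase genes ranked from 5 to 25 by log2 difference. Cxcl9, a chemokine for activated T cells, was at 17.8, 6.07 and 21.3 in the WT mice and at 80.2, 86.5 and 74.2 in the Pum2-/- mice. Among the effectors, the tryptophan-degrading enzyme gene Ido1 was at 3.67, 2.03 and 19.6 in the WT mice and at 52.7, 155 and 152 in the Pum2-/- mice, a log2 difference of 4.03 (SE 0.98). Psmb8, an immunoproteasome subunit gene, differed by 1.76 (SE 0.52) and Psmb9, another, by 1.74 (SE 0.39) on the log2 scale. The log2 difference was 2.84 (SE 0.72) for the serpin gene Serpina3g, 2.36 (SE 0.77) for the chemokine gene Ccl5 and 1.75 (SE 0.47) for Ifi202b. Ubd, which encodes a ubiquitin-like modifier, overlapped: it was at 32.9, 11.1 and 25.8 in the WT mice and at 24.4, 111 and 494 in the Pum2-/- mice. Pum2-/- mouse 3 was the highest of its genotype for 5 of the 8, namely Psmb8, Psmb9, Ubd, Ccl5 and Ifi202b, and the lowest for Cxcl9.

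Likeness to the GTPase genes was measured as the root mean square difference between a gene's centred log2 profile and the mean profile of the 7 genes over the 6 libraries. The closest of the 61 other listed genes were Cxcl9 at 0.34, Ccl12 at 0.37, Fpr1 at 0.39, Fcgr4 at 0.51 and Gzmb at 0.53, where 0 is an identical profile and the farthest gene stood at 3.92. After each gene's mean within its genotype had been subtracted, the closest were Pum2 at 0.26, Cxcl9 at 0.32, Fcgr4 at 0.33, Hsd3b2 at 0.34 and Ccl12 at 0.35. Hsd3b2 is listed at 0 in all Pum2-/- mice. A gene that varies little also gets a small distance on this measure. Pum2 was nearly flat in the WT mice (17.8, 16.1 and 16.5), where the GTPase mean ran from -0.48 in mouse 2 to 0.45 in mouse 3. Its Pum2-/- values were low, from 1.45 to 2.94. Its place is therefore not read as a shared profile. The 7 genes themselves lay between 0.15 and 0.51 from their mean over all libraries and between 0.09 and 0.37 within genotypes, but each is part of that mean, so these distances cannot be set against those of other genes. Among the 21 pairs of GTPase genes, Tgtp2 and Gbp10 were the most alike at 0.25, and Igtp and Tgtp1 the least alike at 0.77. The near-identical pair of Tgtp1 and Tgtp2 ranked 18 of 21 in likeness, at 0.60.

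Tgtp1 and Tgtp2 lie 63.0 kb apart on the minus strand of chromosome 11, at 48985327 to 48994172 and at 49057194 to 49064206 in GENCODE M21 on GRCm38. Igtp lies 9135 kb away from Tgtp2 on the plus strand of that chromosome, at 58199556 to 58207591. Iigp1c (60212080 to 60247820, plus strand), Gm4841 (60268305 to 60273272, minus strand) and Iigp1 (60376027 to 60392634, plus strand) form a cluster on chromosome 18, with gaps of 20.5 kb and 103 kb between neighbours. Gbp10 lies on the minus strand of chromosome 5, at 105215699 to 105239533. None of the 7 genes lies on chromosome 12, which carries Pum2. Gbp10 has 11 exons and a coding sequence of 611 codons, whereas the IRG genes have 2 or 3 exons and 406 to 423 codons.

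Ratios between neighbours within a library do not depend on the scaling of that library. The Tgtp1 to Tgtp2 ratio was 0.299, 0.334 and 0.313 in the WT mice and 1.22, 0.577 and 0.534 in the Pum2-/- mice. The Iigp1c to Iigp1 ratio went the other way, from 0.499, 0.572 and 0.613 in the WT mice to 0.420, 0.377 and 0.314 in the Pum2-/- mice. The Gm4841 to Iigp1 ratio was 0.0703, 0.143 and 0.111 in the WT mice and 0.148, 0.146 and 0.223 in the Pum2-/- mice. None of the 3 ratios overlapped between genotypes, although for Gm4841 the gap was from 0.143 to 0.146. Ratios of other pairs of listed genes were not computed, so nothing is read from that count. The ratios come from the values on which the genes were selected and have no test. The Tgtp1 to Tgtp2 ratio rests on separate values of a near-identical pair, and the Gm4841 to Iigp1 ratio on WT values of Gm4841 that are close to 1.

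**Figure D3:**
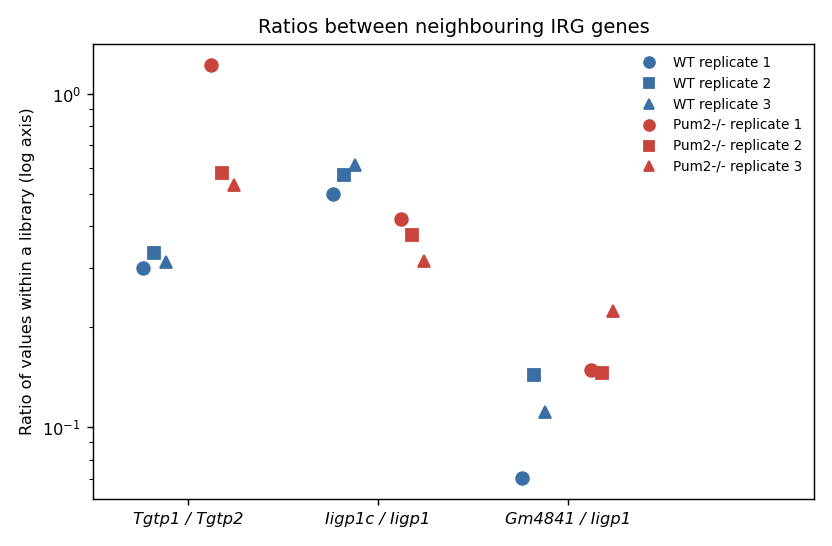
Ratio of the deposited values of neighbouring IRG genes within each library, on a log axis, with 1 point per mouse. The Tgtp1 to Tgtp2 ratio is near 0.3 in the WT mice and above 0.5 in the Pum2-/- mice, and the Iigp1c to Iigp1 ratio is lower in the Pum2-/- mice.

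Part of these genes' transcript sequence is shared, so the split of reads between them depends on a counting method that is not given in the sources used here. The coding sequences of Tgtp1 and Tgtp2 were identical at 99.7% of aligned bases (1244 of 1248), those of Iigp1 and Iigp1c at 88.0%, and those of Iigp1 and Gm4841 at 65.2%. Of the windows of 50 bases in the longest-coding transcript, 91.4% in Tgtp1 and 90.6% in Tgtp2 occurred in another gene, mostly in each other. Gbp10 shared 82.5% of its windows, mostly with the overlapping gene model Gm43302 on the same strand. Igtp shared 12.3%, all with Irgm2, whose exons overlap its own. The share was 10.4% for Gm4841, 4.62% for Iigp1c and 3.19% for Iigp1. In windows of 100 bases it was 83.3% for Tgtp1, 80.4% for Tgtp2, 70.9% for Gbp10, 5.67% for Igtp, 0.329% for Gm4841 and 0 for Iigp1 and Iigp1c, and the read length is not given. Exons of Tgtp1 also overlap those of Gm12185 on the same strand.

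**Figure D4:**
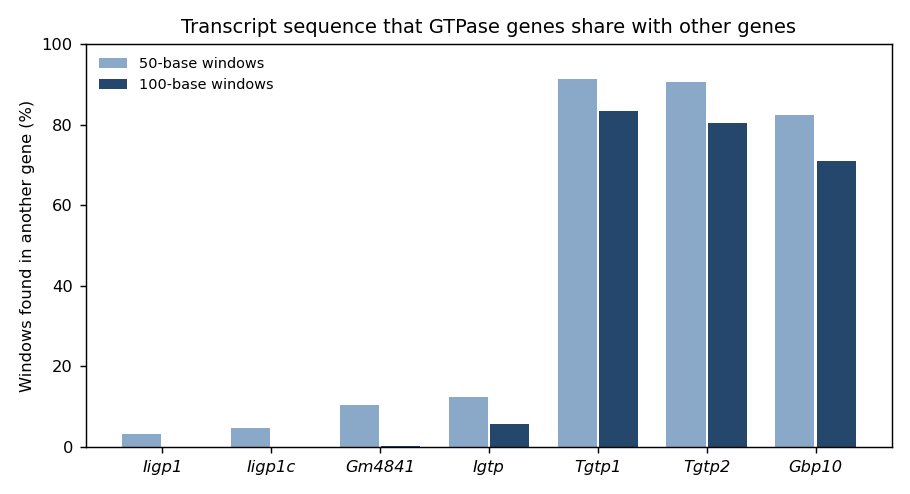
Share of all windows of 50 and 100 bases in each gene's transcript that also occur in a transcript of another gene. Tgtp1, Tgtp2 and Gbp10 share over 70% of their windows at both lengths, and the other 4 genes share under 13%.

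The separate values of Tgtp1, Tgtp2 and Gbp10 are therefore uncertain, and the sum of Tgtp1 and Tgtp2 depends less on that split. Tgtp1 and Tgtp2 summed to 12.2, 8.09 and 19.5 in the WT mice and to 109, 70.3 and 51.2 in the Pum2-/- mice, a log2 difference of 2.46. The sum of Iigp1, Iigp1c and Gm4841 was 20.6, 12.1 and 28.7 in the WT mice and 124, 159 and 74.0 in the Pum2-/- mice, a log2 difference of 2.49. Neither sum could overlap between genotypes, because none of the summed genes did.

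Pumilio proteins bind the element TGTANATA, usually in 3′ UTRs of transcripts. Its letters were searched on the transcript strand of the annotated 3′ UTR, which is 315 bases long in Igtp and 1205 to 1606 bases long in the other 6 genes. No match was found in any of the 7. Among genes with a 3′ UTR within 20% of the same length, the share with a match was 7.05% for the length of Igtp and 24.6% to 29.8% for the lengths of the others, and it was 22.1% over all 20104 genes with at least 50 bases of 3′ UTR. The result says only that these letters are not in these annotated UTRs.

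The targeted gene Pum2 was at 17.8, 16.1 and 16.5 in the WT mice and at 2.94, 2.68 and 1.45 in the Pum2-/- mice, so each library matched its label. The depth of the libraries is unknown. In WT mouse 2, all 27 low values of other genes lay within 0.1 of a whole multiple of 1.003, as read counts would. On that step Gm4841 stood at 1 read, Tgtp1 at 2, Iigp1c and Gbp10 at 4 each, Tgtp2 at 6 and Iigp1 at 7, so the fold differences of the lowest genes rest on few WT reads. Whole reads could not be recovered from all 6 libraries.

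Some listed marker genes of other cell types also differed between the genotypes. In bulk tissue, a change in the number of cells and a change in RNA per cell cannot be told apart. Of 7 markers of T and NK cells 3 are listed, Nkg7, Gzma and Gzmb. All 3 were higher in each Pum2-/- mouse than in each WT mouse, as were 44.1% of all listed genes. For Gzma the lowest Pum2-/- value was only 1.10 times the highest WT value. The summed value of these 3 markers was 25.1, 25.3 and 83.4 in the WT mice and 152, 238 and 291 in the Pum2-/- mice. Nkg7 and Gzma, like the sum, were highest in Pum2-/- mouse 3, and Gzmb in mouse 2. The 22 markers of B and plasma cells took in every listed immunoglobulin gene, and those genes are the 17 that are listed. Of the 17, 11 were lower and 6 higher in mean. Their sum was 6869 to 21380 in the WT mice and 1164 to 2660 in the Pum2-/- mice. The Paneth cell gene Defa30, 1 of 3 such markers, was at 12.97, 48.4 and 34.0 in the WT mice and at 6.89, 0 and 0.134 in the Pum2-/- mice. No marker of epithelium (0 of 5), smooth muscle (0 of 3) or macrophages (0 of 4) is listed, so the tissue label was not checked. The part of these cells in the GTPase values was not tested.

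The libraries also differed in the median of their listed values. The median of the 54 listed genes without a 0 was 12.6 to 20.8 in the WT mice and 29.8 to 33.7 in the Pum2-/- mice. That median leaves out genes at 0 in any mouse, such as Hsd3b2 and Defa30. The sum over all listed genes went the other way, with 9410 to 23980 in the WT mice and 3764 to 5589 in the Pum2-/- mice. Dividing each library by that median shifted the log2 differences of all listed genes by a median of -0.91. On that scale the GTPase genes differed by 0.82 to 2.09, with a median of 1.06. Iigp1c then overlapped, Pum2-/- mouse 3 at 10.9 lying below WT mouse 3 at 11.8, and 6 of 7 genes stayed apart where 27.9% of the listed genes did. How far this median reflects the selection of listed genes, and whether the libraries differ in scale, was not tested.

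**Figure D5:**
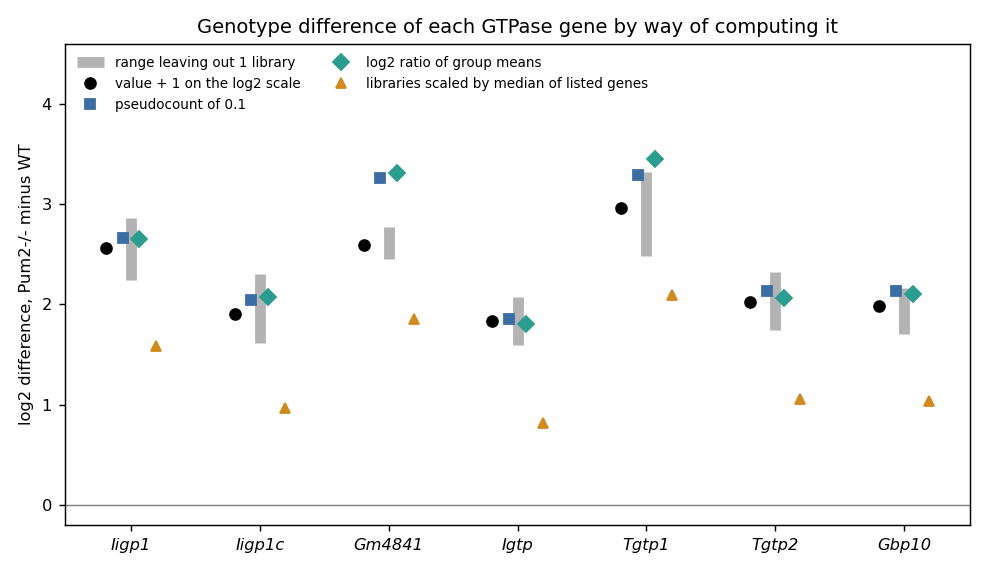
Log2 difference of Pum2-/- minus WT for each GTPase gene under 4 ways of computing it, with grey bars for the range when 1 library was left out. All values lie above 0, which only the division of each library by its median could have changed. The values after that division are the lowest, from 0.82 for Igtp to 2.09 for Tgtp1.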

How the data were processed

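Colon RNA, extracted with Trizol, went into libraries prepared with the SMARTER mRNA-Seq kit. The authors deposited 1 table with a normalized expression signal per gene and library. The normalization, aligner, counting tool and genome build are not given in the sources used here. The authors also deposited their own log2 fold change, p-value and adjusted p-value, which were not used except to see that every adjusted p-value was under 0.05. All 6 value columns were mapped to mice by the sample labels, and 69 rows held 68 genes because 1 Ensembl identifier is on a pair of rows. Total depth is unknown, so no counting interval is given.

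The 7 genes and the gene lists were chosen with earlier results of these data known. The named genes were the 7 GTPase genes, listed genes of the family, pathway and marker lists, Pum2, and the 5 genes most like the mean GTPase profile over all libraries and within genotypes. Values were compared as differences of mean log2(value + 1) with an SE from the variance within each genotype and by overlap of the genotypes, without a test. Differences on this scale understate those of low genes. P-values were not computed, and the libraries, 1 per mouse, were the replicates. Other settings tried were 0.1 as pseudocount, a log2 ratio of means, median scaling over listed genes, a mean of at least 10, summing of neighbours and leaving out each library. Leaving out libraries for the count of genes without overlap, and median scaling for the count of genes lowest in Pum2-/- mouse 3, were added after the data were seen, as was the search for the spaced motif pair. Coordinates, exons, UTRs and shared windows came from GENCODE M21 on GRCm38, matched by Ensembl identifier, and promoters from RefSeq on GRCm38.p6. Both describe the C57BL/6J reference, not FVB. The scripts, in Python 3.11.15 with numpy 2.4.6, pandas 2.3.3 and matplotlib 3.10.9, were tested on simulated data.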

Additional observations from a re-analysis of the deposited data

How the results depend on the processing

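The direction of all 7 differences was the same under each alternative run. Each Pum2-/- value of these genes lay above each WT value. Only the division of libraries by their median could therefore have changed a direction. The median log2 difference of the GTPase genes, 2.03 on the values as deposited, was 1.06 after each library had been divided by its median over the listed genes. It was 2.13 with a pseudocount of 0.1, 2.11 as the log2 ratio of means, 2.00 over the 6 genes with a mean of at least 10, 2.22 with neighbours summed, and 1.74 to 2.32 when 1 library was left out. Of the single-gene differences, 9 moved by more than the spread between mice: all 7 under that division, from 0.82 for Igtp to 2.09 for Tgtp1, and that of Gm4841 with a pseudocount of 0.1 and as a ratio of means. No paired analysis was possible because no result comes from a test and no label ties a WT mouse to a Pum2-/- mouse beyond a shared replicate number. The unknown depth and the low WT values of Gm4841 and Tgtp1 limit the precision of their folds, and a table of genes selected on the same contrast limits every comparison with other genes.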

Other observations

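Some listed genes share identical values in the Pum2-/- mice. Kcnj16, Hsd3b2 and Scgb1b3 are listed at 0 in all 3. Cyp2f2, Ighv11-2 and Ighv1-33 are each at 2.95, 0 and 0.0626 in Pum2-/- mice 1 to 3, and Gal3st2c and Ighe are each at 3.93, 0.847 and 0.0996. None of the 7 GTPase genes shares its values with another gene, and how these values arose was not tested.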
